A study of Mus musculus with 16 samples.

Results

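The 10 genes described here encode the transcription factors at the centre of the mouse pluripotency network: Pou5f1, Sox2, Nanog, Klf4, Klf2, Esrrb, Tfcp2l1, Zfp42, Sall4 and Myc. Every probe set whose single annotated gene symbol was one of these names was taken, which gave 16 probe sets of the 45037 on the array that were not controls, and 10 of the 18193 genes with a probe set of their own. Klf4 and Sall4 had 2 probe sets each, Esrrb and Tfcp2l1 had 3 each, and the other 6 genes had 1 each. Where 1 value stands for a gene it is that of the probe set with the highest mean level over all arrays.

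The factors work as a mutually reinforcing circuit. Pou5f1 (Oct4, a POU-domain factor) and Sox2 (an HMG-box factor) bind DNA side by side on composite sites, and with the homeodomain factor Nanog they occupy many of the same enhancers, including their own. Around this core, Klf4, Klf2, Esrrb and Tfcp2l1 pass signals from leukaemia inhibitory factor (LIF), Wnt and related pathways into the naive state of mouse embryonic stem cells, Zfp42 (Rex1) is a zinc-finger marker of that state, Sall4 is a zinc-finger partner of Pou5f1 and Nanog, and Myc drives growth and ribosome production. Pou5f1, Sox2, Klf4 and Myc are the factors classically used to turn somatic cells into induced pluripotent stem cells. In blood, Klf4, Klf2 and Myc have roles of their own, in monocytes, in lymphocytes and in stem cell exit from the niche.

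RNA from 16 samples of C57Bl6 wild-type mouse cells, labelled as prepared from 10000 cells each, was hybridised to single-colour Affymetrix arrays. There were 2 arrays of induced pluripotent stem cells (iPSC) labelled as of aged blood origin (aged-origin) and 2 of young blood origin (young-origin). Embryonic stem cells (ESC) gave 2 arrays, 1 from each of 2 commercial suppliers, so that their spread is also that between 2 lines. Haematopoietic stem cells (HSC) were sorted from the bone marrow of recipients transplanted with aged marrow (2 arrays) or with young marrow (2 arrays), whose age is not stated. Steady-state HSC came from the marrow of male mice that were 21 to 24 months old (aged, 3 arrays) or 3 to 4 months old (young, 3 arrays). The HSC, iPSC and ESC were all sorted before use. The method of reprogramming, the passage of the cultures and the preparation batch of each array are not stated in the labels, so a p-value here reflects only how arrays of 1 group vary.

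Levels are log2 of the deposited intensity. The 25th percentile of an array lay between 4.11 and 4.31, its median between 5.44 and 5.70, and no array repeated another's values. Summed intensity of 7 pluripotent cell marker genes was 18604 to 20128 on the iPSC and ESC arrays, 155 to 196 in transplanted HSC and 330 to 521 in steady-state HSC, and that of 8 HSC markers was 436 to 509, 7208 to 8797 and 22248 to 26911 in the same order. Of 11 fibroblast genes, which would mark feeder cells, the sum was 516 to 870 on the iPSC and ESC arrays, 411 to 537 in transplanted HSC and 464 to 850 in steady-state HSC. Taken singly, 6 of the 11 were called higher and 1 lower in ESC than in steady-state HSC (28.7% and 23.7% of all genes). In iPSC 5 were called higher and 1 lower (39.1% and 26.6% of all genes). The lower gene was Fap each time, at 8.65 in aged and 5.85 in young steady-state HSC, 4.03 in iPSC and 4.17 in ESC. The sum of 8 mature blood markers was 379 to 444, 192 to 476 and 427 to 826. Because the samples are bulk RNA, fewer cells of a type and less RNA per cell cannot be told apart.

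**Figure D1:**
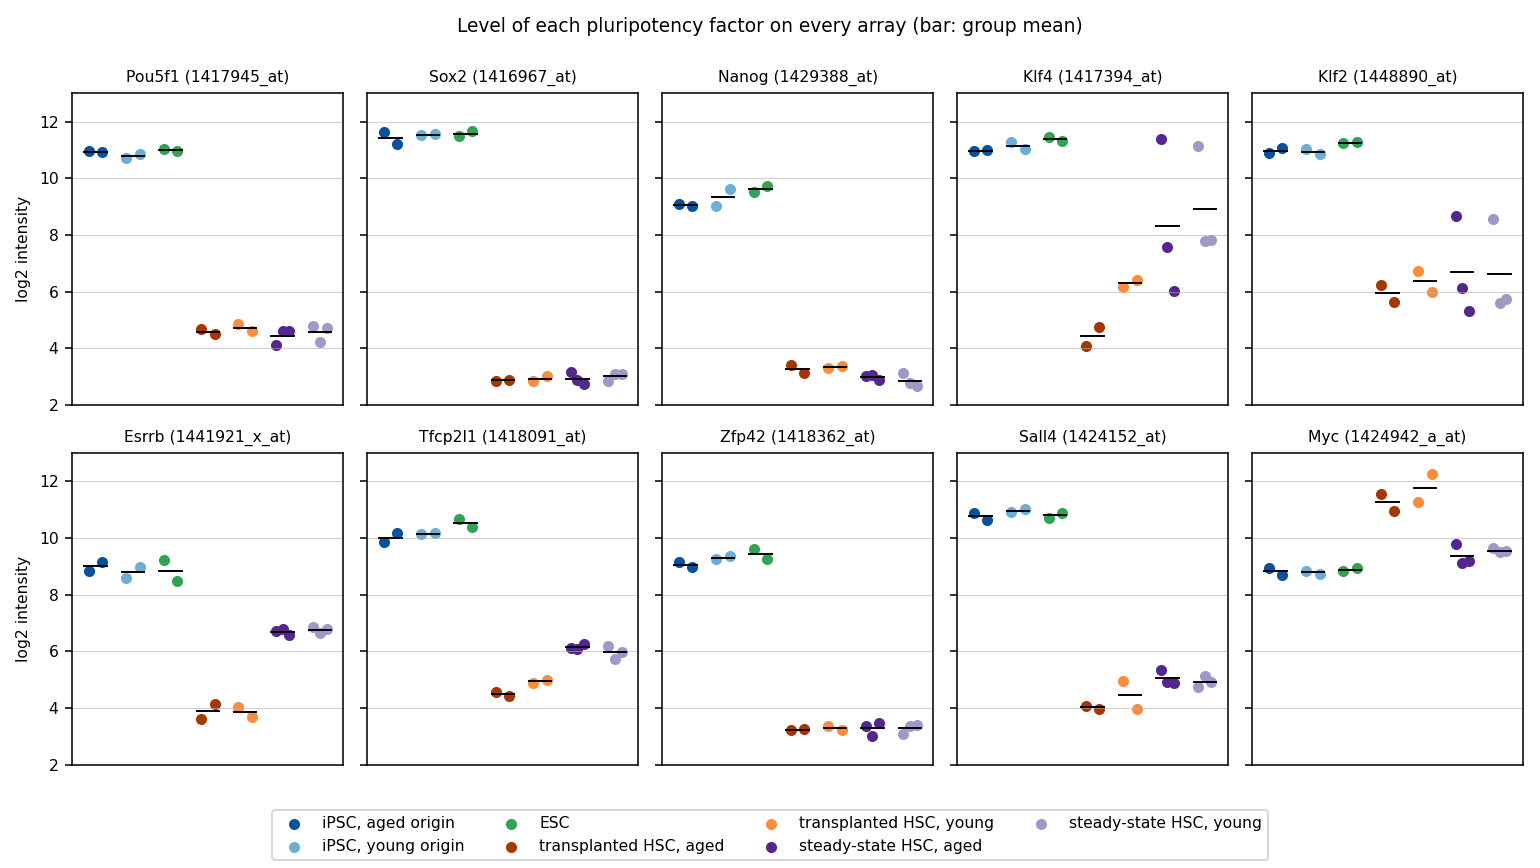
Log2 intensity of the leading probe set of each of the 10 genes on every array (points) with the group mean (bar), for 7 groups of 2 or 3 arrays. For 8 genes the 6 iPSC and ESC arrays all sit above all 10 HSC arrays, by a gap of 1.63 (Esrrb) to 8.04 (Sox2), Klf4 reaches 11.40 and 11.13 on 2 steady-state HSC arrays, Klf2 reaches 8.66 and 8.55 on the same arrays, and Myc is highest in transplanted HSC.

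Pou5f1, Sox2 and Nanog were high in iPSC and ESC. In HSC, Sox2 and Nanog lay near the bottom of the scale, and Pou5f1 between the 25th and the 37.6th percentile of each array. The sequences before these genes and before Zfp42 are shown because the 4 genes moved together: each line gives the 250 bases before a RefSeq transcript start (GRCm38.p6), read 5′ to 3′ on the gene's strand, with capitals marking matches on either strand to 7 spelled-out motifs and the CArG box. The motifs were ATGCAAA (the core of an Oct factor site), ACAATG and ACAAAG (Sox cores), GGGCGG (the GC box bound by Sp and Klf factors), CCCCACCC (a CACCC box), CACGTG (the E-box of Myc and other factors) and AAGGTCA (an Esrrb core). None of the motifs is contained in another, but a GC box may overlap a neighbouring GC box.
Nanog, chr6:122707239-122707488, plus strand: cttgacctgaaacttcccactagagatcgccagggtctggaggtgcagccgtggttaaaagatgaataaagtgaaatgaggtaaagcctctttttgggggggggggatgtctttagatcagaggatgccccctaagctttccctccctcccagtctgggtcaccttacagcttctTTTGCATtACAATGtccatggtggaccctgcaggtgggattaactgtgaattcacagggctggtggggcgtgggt
Sox2, chr3:34649745-34649994, plus strand: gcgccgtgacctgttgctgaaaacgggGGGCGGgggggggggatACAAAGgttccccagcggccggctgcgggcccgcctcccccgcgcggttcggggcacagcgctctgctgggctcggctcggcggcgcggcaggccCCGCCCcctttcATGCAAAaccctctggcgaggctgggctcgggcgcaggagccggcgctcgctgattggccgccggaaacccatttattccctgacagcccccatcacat
Pou5f1, chr17:35505782-35506031, plus strand: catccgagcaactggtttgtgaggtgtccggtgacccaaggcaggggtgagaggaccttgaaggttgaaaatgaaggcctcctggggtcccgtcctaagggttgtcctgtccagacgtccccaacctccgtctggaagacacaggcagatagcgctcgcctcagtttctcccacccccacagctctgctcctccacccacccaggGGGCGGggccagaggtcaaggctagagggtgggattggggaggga
Zfp42, chr8:43307010-43307259, minus strand: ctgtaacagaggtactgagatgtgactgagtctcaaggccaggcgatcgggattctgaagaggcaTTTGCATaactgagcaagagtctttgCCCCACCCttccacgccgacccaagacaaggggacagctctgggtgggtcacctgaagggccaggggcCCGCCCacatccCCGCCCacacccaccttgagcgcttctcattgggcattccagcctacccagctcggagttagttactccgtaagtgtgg

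The Nanog window held an Oct core read on the minus strand (TTTGCAT) at positions -75 to -69, counted from the transcript's first base as 0, and a Sox core at -67 to -62, with 1 base between them, which is the layout of a composite Oct and Sox site. The Sox2 window held an Oct core at -99 to -93, and the Zfp42 window held one at -185 to -179. The 8 member genes with a window had 11 in all. An Oct core was in 4 of these (both overlapping Nanog windows, Sox2 and Zfp42) and in 4.12% of all 32851 windows. An ACAATG match was in 3 of the 11 windows (both of Nanog and a Pou5f1 window not shown) and in 10.7% of all windows. ACAAAG was in 1 of the 11 (Sox2) and in 16.5% of all windows. CCCCACCC was in 3 of the 11 (Zfp42 and both of Esrrb, which are not shown) and in 9.05% of all windows. The Pou5f1 window held a GC box at -45 to -40 and no Oct core, and AAGGTCA was in no member's window and in 4.08% of all windows. A match is a description of the letters, not of a bound site.

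Pou5f1 measured 10.96 and 10.93 in aged-origin iPSC, 10.73 and 10.87 in young-origin iPSC, and 11.04 and 10.95 in ESC. In HSC it measured 4.68 and 4.49 (transplanted aged), 4.84 and 4.61 (transplanted young), 4.13, 4.62 and 4.60 (steady-state aged) and 4.78, 4.22 and 4.72 (steady-state young). All 6 pluripotent arrays lay above all 10 HSC arrays, and the HSC values stayed under the median of their arrays. The mean was 10.87 in iPSC and 4.51 in steady-state HSC, a log2 difference of 6.36 (SE 0.14), or 82.2-fold, with a limma adjusted p of 4.68e-13.

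Sox2 gave the widest separation of the 16 probe sets. It measured 11.64 and 11.20 in aged-origin iPSC, 11.52 and 11.56 in young-origin iPSC, 11.48 and 11.66 in ESC, and no more than 3.16 on any of the 10 HSC arrays. Those HSC values, from 2.72 to 3.16, lay under the 25th percentile of every array. The difference between iPSC and steady-state HSC was 8.51 (SE 0.12), 365-fold, with an adjusted p of 1.99e-14, and that between ESC and steady-state HSC was 8.60 (SE 0.16). Folds for genes this dim in HSC depend on the background left in the deposited intensities.

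Nanog measured 9.09 and 9.01 in aged-origin iPSC, 9.02 and 9.63 in young-origin iPSC and 9.54 and 9.74 in ESC. The HSC arrays lay between 2.66 and 3.40. The young-origin array at 9.63 stood within the ESC range while the other 3 iPSC arrays stood below it. The iPSC mean of 9.19 exceeded the steady-state HSC mean of 2.92 by 6.27 (SE 0.14), 77.1-fold, with an adjusted p of 4.65e-13.

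Sall4 (chr2:168748332-168767201) and Zfp42 were likewise high in pluripotent cells and low in HSC. Sall4 by probe set 1424152_at averaged 10.87 in iPSC, 10.80 in ESC, 4.24 in transplanted HSC and 4.99 in steady-state HSC, and by 1424153_s_at 10.35, 10.49, 3.93 and 3.50. The differences between iPSC and steady-state HSC were 5.88 (SE 0.17) and 6.85 (SE 0.17), with adjusted p of 6.81e-12 and 1.15e-12. Zfp42 measured 8.96 to 9.36 in iPSC, 9.63 and 9.27 in ESC, and 3.01 to 3.47 on the 10 HSC arrays. Its difference between iPSC and steady-state HSC was 5.90 (SE 0.13), 59.7-fold, with an adjusted p of 3.82e-13.

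Esrrb (chr12:86361117-86521628), which encodes an orphan nuclear receptor, was read differently by its 3 probe sets. Probe set 1436926_at measured 8.15 to 8.47 in iPSC, 8.64 on both ESC arrays and 3.81 to 4.65 in HSC, and rose by 4.14 (SE 0.14) in iPSC over steady-state HSC, 17.6-fold, with an adjusted p of 3.25e-11. Probe set 1441921_x_at measured 8.60 to 9.17 in iPSC and 9.21 and 8.50 in ESC, but 6.59 to 6.87 in steady-state HSC and 3.63 to 4.15 in transplanted HSC. In Affymetrix naming an x marks a probe set with probes that resemble other sequences, and its steady-state HSC level was not shared by 1436926_at, which had 3.87 to 4.42 there. Probe set 1422986_at stayed between 4.69 and 5.44 on all 16 arrays. Its difference of 0.37 (SE 0.12) between iPSC and steady-state HSC had an adjusted p of 0.0156, and that between ESC and steady-state HSC, 0.13 (SE 0.15), had one of 0.518.

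Tfcp2l1 (chr1:118627923-118685168), which encodes a grainyhead-family factor downstream of LIF, was high in pluripotent cells by probe set 1418091_at. This measured 9.86 and 10.16 in aged-origin iPSC, 10.13 and 10.17 in young-origin iPSC, 10.66 and 10.38 in ESC, 4.56 and 4.42 in transplanted aged HSC, an average of 4.94 in transplanted young HSC, and 5.73 to 6.27 in steady-state HSC. The 4 sets of cells did not overlap. The iPSC mean exceeded that of steady-state HSC by 4.02 (SE 0.12), 16.2-fold, with an adjusted p of 6.81e-12. Probe sets 1460715_x_at and 1460714_at read 2.92 to 3.52 in iPSC and 2.81 to 3.44 in steady-state HSC, and their differences of 0.26 (SE 0.23) and 0.03 (SE 0.12) did not pass the test, with adjusted p of 0.349 and 0.844. The 3 probe sets therefore gave folds from 1.02 to 16.2 for the same gene.

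Across the 16 probe sets, 13 were higher and 1 lower in iPSC than in steady-state HSC at a limma adjusted p under 0.05, where 33.8% of all probe sets were higher and 23.6% lower. Every one of the 10 genes had a called probe set. The median difference of the 16 was 4.08, against 0.15 over all probe sets. In ESC, 11 of the 16 were higher than in steady-state HSC and 0 lower (24.4% of all probe sets were higher, 19.9% lower), with a median of 4.48 against 0.11. The arrays of iPSC and steady-state HSC did not overlap for 13 of the 16 probe sets (52.9% of all), and those of ESC and steady-state HSC for 12 (57.1% of all). In ESC the differences were 6.49 (SE 0.18) for Pou5f1, 6.72 (SE 0.17) for Nanog, 6.16 (SE 0.16) for Zfp42, 5.82 (SE 0.22) for Sall4 1424152_at, 4.46 (SE 0.15) for Tfcp2l1 1418091_at and 4.58 (SE 0.80) for Klf2. Both comparisons use the same steady-state HSC arrays.

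**Figure D2:**
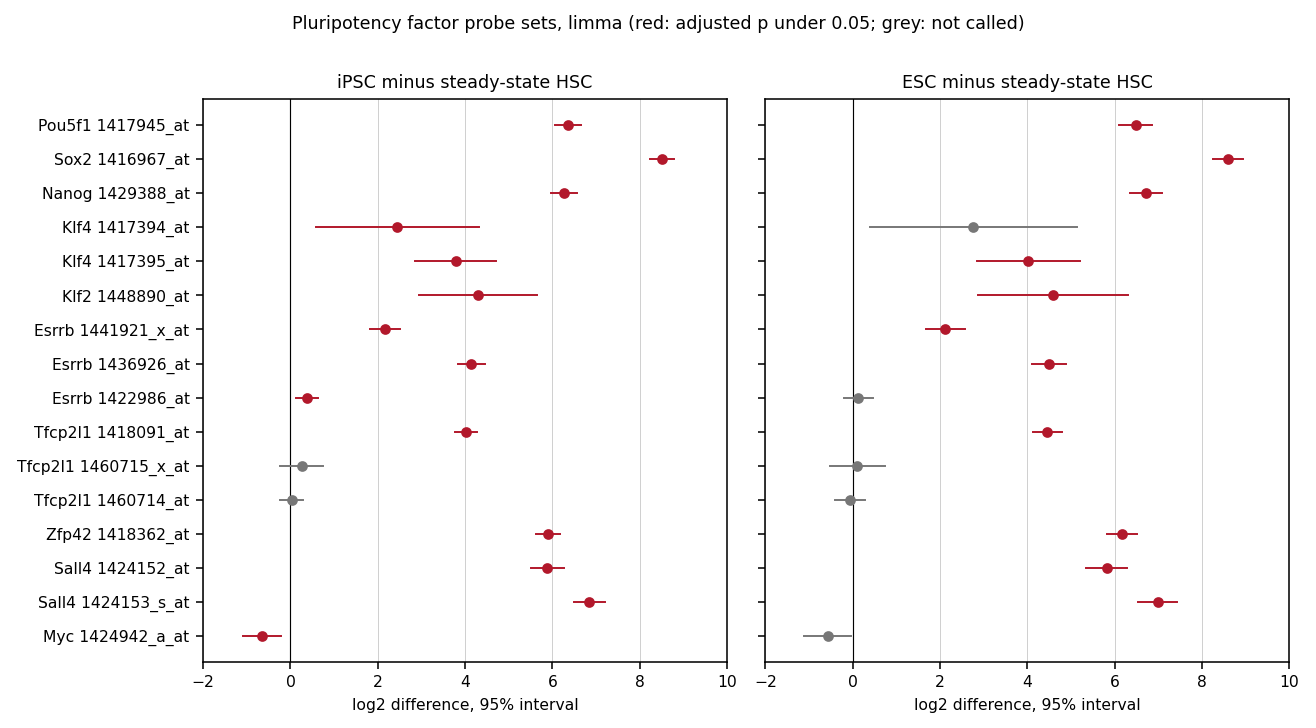
Log2 difference from steady-state HSC (n = 6) with its 95% interval for the 16 probe sets, in iPSC (left, n = 4) and ESC (right, n = 2); red marks adjusted p under 0.05. Sox2 lies farthest from 0 at 8.51 and 8.60, Klf4 1417394_at and Klf2 have the widest intervals, and Myc is the probe set to the left of 0 that is red in iPSC.

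Klf4 and Klf2, Kruppel-like zinc-finger factors that overlap in function in embryonic stem cells, departed from this pattern, and HSC arrays differed among themselves. The windows before their transcript starts are shown beside those above because both genes were high on the same HSC arrays.
Klf4, chr4:55532476-55532725, minus strand: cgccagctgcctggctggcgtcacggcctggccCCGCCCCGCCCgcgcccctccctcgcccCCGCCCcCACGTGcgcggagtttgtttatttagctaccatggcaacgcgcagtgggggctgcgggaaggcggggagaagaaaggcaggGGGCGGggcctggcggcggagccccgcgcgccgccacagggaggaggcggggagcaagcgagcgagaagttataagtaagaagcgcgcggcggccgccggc
Klf2, chr8:72318812-72319061, plus strand: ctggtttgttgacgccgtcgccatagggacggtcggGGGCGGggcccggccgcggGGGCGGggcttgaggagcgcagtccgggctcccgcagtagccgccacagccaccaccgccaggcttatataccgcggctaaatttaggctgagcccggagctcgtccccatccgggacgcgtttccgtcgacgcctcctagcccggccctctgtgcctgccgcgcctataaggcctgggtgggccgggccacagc

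The Klf4 window held 4 GC boxes, at -217 to -212, -212 to -207, -189 to -184 and -101 to -96, of which the first overlaps the next by 1 base. It also held an E-box at -182 to -177. The Klf2 window held 2 GC boxes, at -214 to -209 and -195 to -190. GC boxes were found in 5 of the 11 member windows (Klf2, Klf4, Pou5f1, Sox2 and Zfp42) and in 32.7% of all windows. The E-box was found in 1 of the 11, that of Klf4, and in 6.02% of all windows. No CArG box, the site of serum response factor, was in a member's window, and 1.47% of all windows held one.

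Klf4 by probe set 1417394_at measured 10.96 and 10.99 in aged-origin iPSC, 11.28 and 11.04 in young-origin iPSC and 11.46 and 11.31 in ESC. In steady-state HSC it measured 11.40, 7.58 and 6.01 in aged mice and 11.13, 7.78 and 7.83 in young mice. In transplanted HSC it measured 4.08 and 4.76 with aged marrow and 6.18 and 6.42 with young marrow. The array numbered 1 of each steady-state age group thus lay in the range of pluripotent cells, while the other 4 lay between 6.01 and 7.83. The second Klf4 probe set, 1417395_at, read 7.73 and 7.36 on those 2 arrays, 5.57 to 6.30 on the other 4 and 10.05 to 10.44 in iPSC and ESC, so by this probe set the groups did not overlap.

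Klf2 measured 10.91 and 11.06 in aged-origin iPSC, 11.04 and 10.85 in young-origin iPSC and 11.24 and 11.27 in ESC. In steady-state HSC it measured 8.66, 6.15 and 5.33 in aged mice and 8.55, 5.60 and 5.73 in young mice, and in transplanted HSC 5.64 to 6.75. The arrays numbered 1 were again the high ones, but stayed below every iPSC and ESC array. The iPSC mean exceeded that of steady-state HSC by 4.29 (SE 0.63), 19.6-fold, with an adjusted p of 5.36e-05.

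The difference between iPSC and steady-state HSC for Klf4 1417394_at was 2.45 (SE 0.87) with an adjusted p of 0.0274, and that for 1417395_at was 3.79 (SE 0.43) with an adjusted p of 4.88e-06. Between ESC and steady-state HSC, 1417394_at differed by 2.76 (SE 1.10) and did not pass the test, with an adjusted p of 0.0564. Without both arrays numbered 1 the same differences were 3.77 (SE 0.28) for iPSC and 4.09 (SE 0.35) for ESC, with adjusted p of 5.89e-07 and 2.54e-06. The call for iPSC was lost, with an adjusted p of 0.0565 to 0.0728, when 1 of 8 other arrays was left out: steady-state aged 2 or 3, steady-state young 2 or 3, or any iPSC array.

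The spread of these 3 probe sets within the steady-state groups was wide on the scale of the whole array. The pooled within-group SD was 2.39 for Klf4 1417394_at, 1.70 for Klf2 and 1.03 for Klf4 1417395_at, larger than that of 99.99%, 99.95% and 99.72% of probe sets. The other 13 member probe sets had an SD of at most 0.29 there. In iPSC the same 3 probe sets had SDs of 0.12, 0.12 and 0.11, below the median of 0.14 over all probe sets.

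A list of 14 immediate early genes, which respond within minutes to stimulation, was added after the Klf4 and Klf2 values had been seen. On the 2 arrays numbered 1 their summed intensity was 89494 in aged HSC and 66569 in young HSC, against 18716 to 29748 on the other 4 steady-state arrays, 8970 to 25596 in transplanted HSC and 7424 to 10563 in iPSC and ESC. Of the 14 genes, 13 were highest on the array numbered 1 in both age groups, against 11.7% of all probe sets, and the exception was Egr3. Of the 16 member probe sets, 4 were: both of Klf4, that of Klf2 and, by 0.65 in aged and 0.11 in young HSC, that of Myc.

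The excess of the array numbered 1 over the mean of the other 2 of its age was 4.61 in aged and 3.33 in young HSC for Klf4 1417394_at, and 2.92 and 2.88 for Klf2. By the smaller excess of the 2 ages Klf4 ranked 4 and Klf2 ranked 11 of 45037 probe sets. The first 2 ranks were held by Nr4a1, an orphan nuclear receptor gene, at 4.13 and 3.87, and Egr2, a zinc-finger gene, at 3.77 and 3.87. Only 24 probe sets, 0.0533% of all, exceeded 2 in both ages. The part of the immediate early genes in the Klf4 and Klf2 differences was not tested beyond the values without the 2 arrays.

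**Figure D3:**
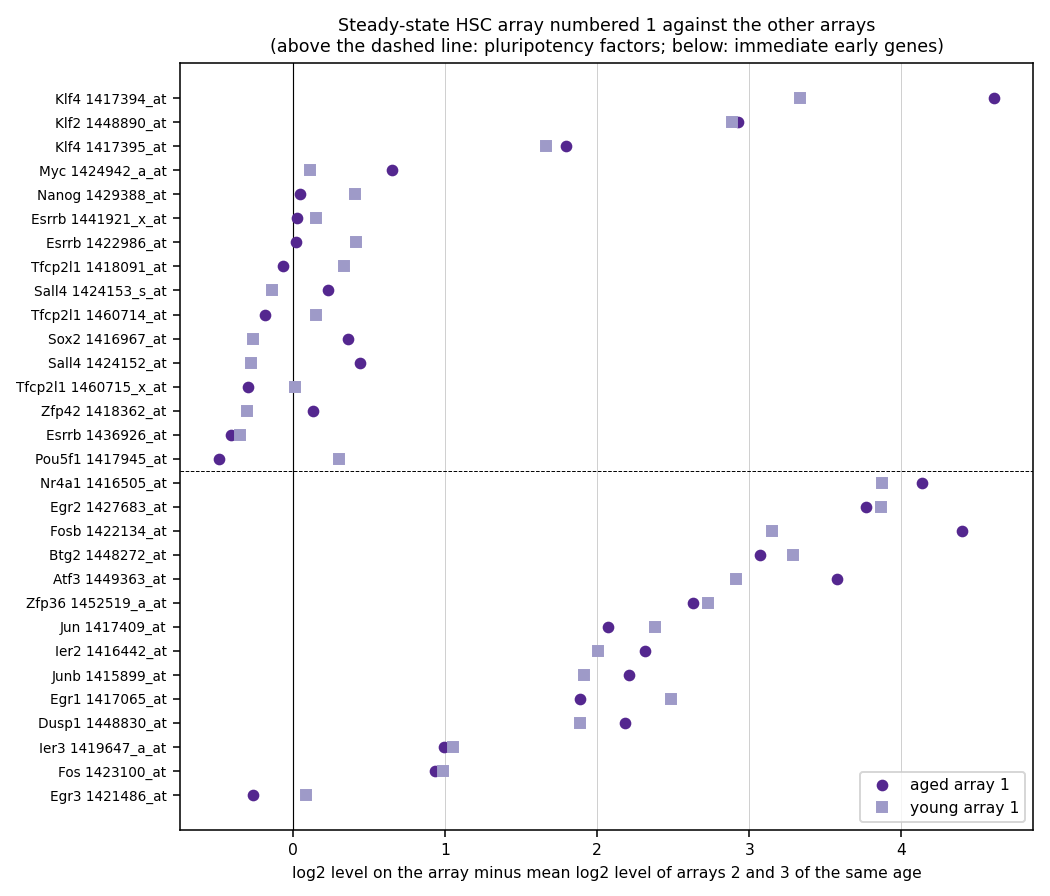
Log2 level on the steady-state HSC array numbered 1 minus the mean of arrays 2 and 3 of the same age, in aged (circles) and young (squares) mice, for the 16 member probe sets (above the dashed line) and 14 immediate early genes (below it). Klf4 and Klf2 lie with the immediate early genes at 1.67 to 4.61, and the other members lie within 0.65 of 0.

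Myc (chr15:61985341-61990361) ran against the rest of the network. It measured 8.95 and 8.71 in aged-origin iPSC, 8.84 and 8.73 in young-origin iPSC and 8.83 and 8.95 in ESC. In transplanted HSC it measured 11.56 and 10.96 with aged marrow and 11.26 and 12.27 with young marrow, and in steady-state HSC 9.80, 9.11 and 9.20 in aged and 9.63, 9.50 and 9.54 in young mice. Pluripotent cells were thus lowest, steady-state HSC next and transplanted HSC highest, with no overlap between the 3. The iPSC mean of 8.81 was below the steady-state mean of 9.46 by a log2 difference of -0.65 (SE 0.20), with an adjusted p of 0.0126. For ESC the difference was -0.57 (SE 0.25), with an adjusted p of 0.0835. The iPSC call was lost without aged-origin array 2 (adjusted p 0.0528), without both steady-state arrays numbered 1 (-0.53, adjusted p 0.0521) and with quantile normalisation (-0.46, adjusted p 0.0539).

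The partners of Myc and its targets were read on 1 probe set per gene. In iPSC, 12 of 16 ribosome biogenesis genes known as Myc targets were higher than in steady-state HSC and 2 were lower, where 39.1% of all genes were higher and 26.6% lower, and their median difference was 0.87. Nolc1, a nucleolar phosphoprotein gene, was 9.53-fold higher (3.25, SE 0.18), and Cad, which starts pyrimidine synthesis, was 6.81-fold higher (2.77, SE 0.18). Rrp9 and Bop1, both of ribosomal RNA processing, were 6.27-fold and 5.31-fold higher. In transplanted HSC, where Myc was highest, 5 of the 16 were higher than in steady-state HSC and 8 lower, against 19% and 42.5% of all genes. The snoRNP genes Nop58 (1.67, SE 0.18) and Nop56 (1.55, SE 0.17) were among those that rose, and Rrp9 (-1.57, SE 0.13) and the nucleostemin gene Gnl3 (-1.16, SE 0.10) among those that fell.

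Transplanted and steady-state HSC differed widely, and the share of the members that did was near the background. The titles call the steady-state HSC male and give no sex for the transplanted HSC. Transplantation therefore cannot be told apart here from sex or preparation. Of the 16 probe sets 4 were higher and 4 lower in transplanted HSC, where 28.1% and 31.4% of all probe sets were, the arrays did not overlap for 6 of the 16 (46.7% of all), and the median of all probe sets moved by -0.04, or by -0.25 after each array was centred on its median. Myc rose by 2.05 (SE 0.23), 4.15-fold, with an adjusted p of 4.86e-05. Klf4 1417394_at fell by 3.26 on the log2 scale (SE 1.03, adjusted p 0.0210), and without both steady-state arrays numbered 1 the difference was -1.94 (SE 0.35, adjusted p 0.00303). That call was lost without transplanted aged array 1 (-3.09, adjusted p 0.0623). Klf4 1417395_at and Klf2 differed by -0.21 (SE 0.51) and -0.52 (SE 0.74) and were not called, and without the arrays numbered 1 both differences were above 0, at 0.36 and 0.45.

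Probe sets of the same gene could differ between transplanted and steady-state HSC in unlike ways, and only Tfcp2l1 had calls in both directions. Tfcp2l1 1418091_at averaged 4.72 in transplanted HSC and 6.06 in steady-state HSC, a difference of -1.35 (SE 0.12) with an adjusted p of 1.24e-05. Tfcp2l1 1460715_x_at and 1460714_at averaged 4.10 and 4.12 in transplanted HSC and 3.05 and 3.12 in steady-state HSC, differences of 1.04 (SE 0.25) and 1.00 (SE 0.13). Esrrb 1441921_x_at fell by 2.85 on the log2 scale (SE 0.14, adjusted p 2.52e-07), while 1436926_at and 1422986_at differed by 0.06 (SE 0.16) and 0.20 (SE 0.13) and were not called. Sall4 1424152_at fell by 0.74 (SE 0.20, adjusted p 0.00958), and 1424153_s_at differed by 0.43 (SE 0.18, adjusted p 0.0673). The levels of all these probe sets in HSC were under 7, and Nanog, called at 0.38 (SE 0.13, adjusted p 0.0261), averaged 3.30 in transplanted and 2.92 in steady-state HSC, both under the 25th percentile of the arrays. The Nanog call was lost when 1 of 5 arrays was left out (adjusted p up to 0.0869) and with centring (0.18, adjusted p 0.260). Pou5f1, Sox2 and Zfp42 differed by 0.14, -0.07 and -0.02, with 95% intervals within -0.35 to 0.51.

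**Figure D4:**
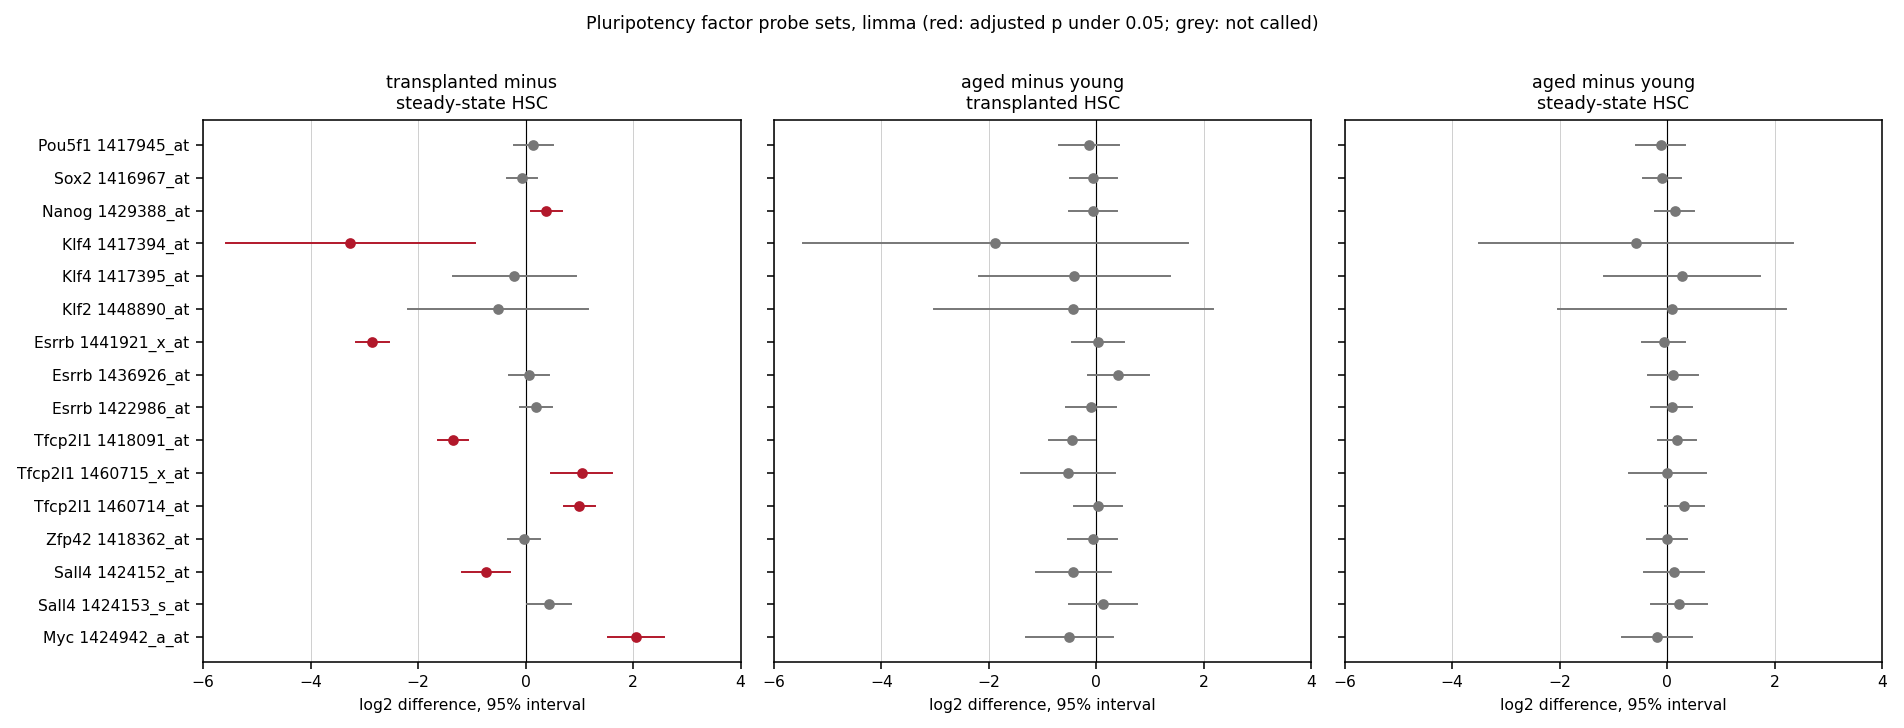
Log2 differences with 95% intervals for the 16 probe sets between transplanted and steady-state HSC (left), between aged and young transplanted HSC (middle) and between aged and young steady-state HSC (right); red marks adjusted p under 0.05. Of the 8 red probe sets, all in the left panel, Myc lies farthest above 0 at 2.05 and Klf4 1417394_at farthest below at -3.26, and Klf4 and Klf2 have the widest intervals in every panel.

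No member passed the test for age in HSC. Between aged and young steady-state HSC, 0 of the 16 probe sets passed limma's test (0.495% of all probe sets did), and 0 had an unadjusted p under 0.05, as 4.80% of all probe sets had. Klf4 1417394_at differed by -0.58 (95% interval -3.51 to 2.34) and Klf2 by 0.08 (-2.04 to 2.21), so that this fit could not see changes of several log2 units for these 2 genes. In both ages the array numbered 1 was high for them and widened these intervals. On arrays 2 and 3 Klf2 measured 6.15 and 5.33 in aged and 5.60 and 5.73 in young mice. Klf4 1417394_at measured 7.58 and 6.01 in aged and 7.78 and 7.83 in young mice on those arrays. For the other genes the intervals were narrower: -0.58 to 0.34 for Pou5f1, -0.46 to 0.25 for Sox2 and -0.85 to 0.47 for Myc. Between aged and young transplanted HSC, 0 of the 16 passed (0.833% of all did), and 1 had an unadjusted p under 0.05, as did 12.9% of all probe sets. That was Tfcp2l1 1418091_at, at 4.49 with aged marrow and 4.94 with young marrow (difference -0.45, SE 0.19, adjusted p 0.356).

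In transplanted HSC, Klf4 1417394_at was lower on both arrays of aged marrow (4.08 and 4.76) than on both of young marrow (6.18 and 6.42). The difference of -1.88 (SE 1.59) did not pass limma's test, with an adjusted p of 0.714. That SE came from a variance shared by transplanted and steady-state HSC. The within-group SD of this probe set was 0.36 in transplanted and 2.39 in steady-state HSC. The test therefore cannot decide whether this probe set differs with age in transplanted HSC. The arrays of 3 member probe sets did not overlap between aged and young transplanted HSC, against 32.1% of all probe sets. The sum of the 14 immediate early genes was also lower there, 8970 and 11612 with aged marrow against 25596 and 18636 with young marrow; so was that of 8 mature blood markers, 192 and 237 with aged against 476 and 331 with young marrow. By log2 difference 3 of those 8 markers were higher with aged marrow (Elane by 0.55, Itgam by 0.23 and Cd79a by 0.18), and the list median was -0.06. Of the 8 markers 1 was called, the monocyte gene Csf1r, at 3.24 with aged and 6.85 with young marrow (difference -3.61, SE 0.58, adjusted p 0.0353). The part of either list in the Klf4 values was not tested. Klf4 1417395_at overlapped between these groups, at 6.25 and 5.69 with aged and 5.64 and 7.12 with young marrow. Without young transplanted array 1, 1 probe set passed, Tfcp2l1 1460715_x_at (-1.27, adjusted p 0.0242), which read 3.99 and 3.67 with aged marrow, 5.10 on the remaining array with young marrow and 3.63 on the one left out. The lone array is assumed there to vary like the other groups. For the difference of the age effect between transplanted and steady-state HSC, 0 of the 16 passed the interaction term of limma (0.0511% of all probe sets did), and 1 had an unadjusted p under 0.05, as did 8.77% of all: Tfcp2l1 1418091_at at 0.0297.

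Between the 4 iPSC and the 2 ESC arrays the differences of the 16 probe sets ran from -0.45 to 0.24. Their median absolute difference was 0.20, against 0.13 over all probe sets. By limma on the 6 arrays, 0 of the 16 probe sets passed (0.0733% of all did), the smallest adjusted p was 0.303, and 5 had an unadjusted p under 0.05, as did 11% of all probe sets. All 5 were lower in iPSC: Nanog at 9.19 against 9.64 in ESC (difference -0.45, 95% interval -0.84 to -0.07), Tfcp2l1 1418091_at at 10.08 against 10.52 (-0.44, -0.76 to -0.12), Esrrb 1436926_at at 8.29 against 8.64 (-0.35, -0.64 to -0.07), Klf4 1417394_at at 11.07 against 11.39 (-0.32, -0.61 to -0.03) and Klf2 at 10.96 against 11.25 (-0.29, -0.57 to -0.01). Taken by gene, 8 of the 10 were lower and 2 higher (Esrrb 1441921_x_at by 0.04 and Sall4 by 0.07), and the arrays of 6 probe sets did not overlap, against 21.6% of all probe sets. Pou5f1 and Sox2 differed by -0.12 (-0.39 to 0.15) and -0.09 (-0.42 to 0.24), and Myc by -0.08 (-0.37 to 0.21). Whether the iPSC values of Pou5f1, Sox2, Klf4 and Myc include transcripts of copies introduced for reprogramming was not tested, since the labels do not give the method. The p-values that missed the threshold do not show that the levels in iPSC and ESC are alike, and the intervals give the sizes that remain possible.

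The fibroblast genes also stood lower in iPSC as a list, with a median of -0.30 and 10 of 11 below 0, none of them called; their part in the differences was not tested. Their summed intensity was 530 and 554 in aged-origin iPSC, 516 and 870 in young-origin iPSC and 787 and 859 in ESC. The young-origin array at 870 was the one with the highest Nanog level of the 4 iPSC arrays, 9.63. It was also the highest of the 4 for Tfcp2l1 1418091_at (10.17) and Esrrb 1436926_at (8.47). For Klf4 1417394_at it read 11.04, below the other young-origin array at 11.28, and for Klf2 it was the lowest of the 4, at 10.85.

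Between aged-origin and young-origin iPSC, 0 of the 16 probe sets passed limma's test (0.00888% of all did), and 1 had an unadjusted p under 0.05, as did 4.64% of all probe sets. This was also the difference farthest from 0, that of Sall4 1424153_s_at, 10.09 and 10.22 in aged-origin against 10.33 and 10.77 in young-origin iPSC (-0.40, 95% interval -0.78 to -0.01, adjusted p 0.996), and the other Sall4 probe set differed by -0.20 (-0.54 to 0.14). Nanog differed by -0.28 (-0.72 to 0.17), Zfp42 by -0.25 (-0.61 to 0.12), Pou5f1 by 0.15 (-0.16 to 0.46), Sox2 by -0.12 (-0.50 to 0.26) and Klf2 by 0.04 (-0.29 to 0.36). With 2 arrays in each group, 5 of the 16 probe sets did not overlap between the origins, against 32.4% of all probe sets. All 16 intervals lay within -0.78 to 0.75.

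**Figure D5:**
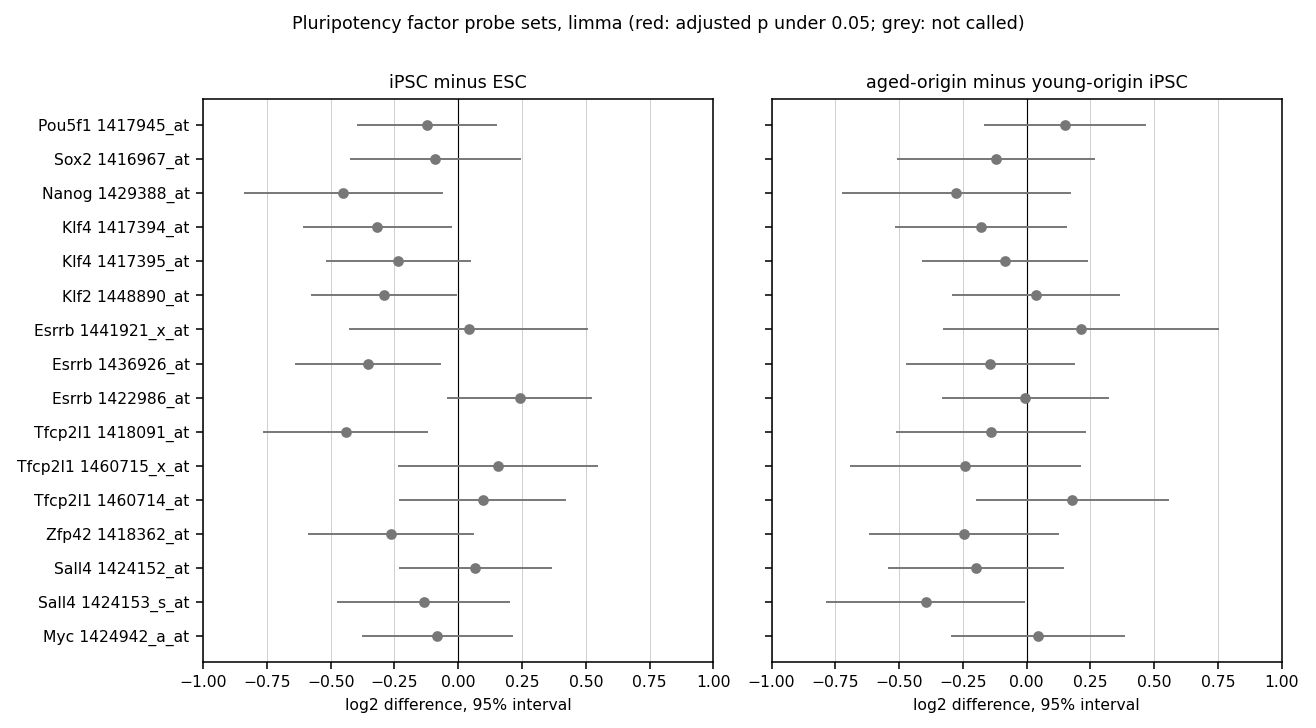
Log2 differences with 95% intervals for the 16 probe sets between iPSC and ESC (left, 4 and 2 arrays) and between aged-origin and young-origin iPSC (right, 2 and 2 arrays); grey marks probe sets that were not called. All points lie between -0.45 and 0.24, and 11 of 16 are below 0 in each panel.

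Other genes of the network were read from lists, at 1 probe set per gene. Of 19 measured naive pluripotency partners, 18 were higher in iPSC than in steady-state HSC and 0 lower, where 39.1% of all genes were higher and 26.6% lower. Their median difference was 4.24 against 0.20 over all genes. The leading ones were Nr0b1, the Dax1 nuclear receptor gene (6.74, SE 0.09, 107-fold), the RNA-binding Dppa5a (7.92, SE 0.12, 242-fold), the Nodal co-receptor gene Tdgf1 (7.84, SE 0.12, 228-fold) and Fgf4, a direct Pou5f1 and Sox2 target (7.17, SE 0.13, 144-fold). All 17 measured factors of the primed epiblast and early differentiation were also higher, against the same 39.1% of all genes, by a median of 1.10. Several of them still lay under the array median in iPSC, such as Sox17 at 4.55 (difference 0.52), Gata4 at 4.96 (0.64) and Pax6 at 5.08 (0.41). Foxd3 averaged 6.35 in iPSC and 4.46 in steady-state HSC, Pou3f1 7.99 and 5.14, Otx2 5.75 and 3.09, and the DNA methyltransferase gene Dnmt3b 12.28 and 10.09.

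Of the components of the LIF, Wnt and FGF inputs, 10 of 20 were higher and 7 lower in iPSC than in steady-state HSC, against 39.1% and 26.6% of all genes. Lifr, the LIF receptor gene, was 42.1-fold higher (5.39, SE 0.14) and Id3, a BMP target, 28.8-fold higher (4.85, SE 0.27). The kinase gene Jak1 (6.56 in iPSC and 9.81 in HSC) and the BMP effector gene Smad1 (8.51 and 11.19) were lower. In aged against young steady-state HSC this list held 2 calls, Bmp4 (7.80 against 5.74, difference 2.07, SE 0.31, adjusted p 0.0249) and the BMP target Id2 (7.60 in young HSC, difference 1.40, SE 0.24, adjusted p 0.0492), against 0.627% of all genes called higher.

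Relatives of the members in the same gene families were near the background, with 10 of 26 higher in iPSC than in steady-state HSC and 9 lower, where 39.1% of all genes were higher and 26.6% lower. Sall1 (9.31 in iPSC and 3.08 in HSC) and Klf5 (10.50 and 5.08, 42.9-fold), a further Kruppel-like factor of embryonic stem cells, were on the side of the network. Sox4, a SoxC factor of blood progenitors (7.20 and 11.81), and Mxd1, which competes with Myc for its partner Max (6.47 and 9.24), were lower in iPSC. All 20 measured HSC identity genes were lower in iPSC, by a median of 5.71 log2 units (-5.71). Among them were Ptprc, the CD45 gene (3.41 and 12.49), Fli1 (3.16 and 10.08), Mecom (4.53 and 11.82) and Lmo2 (5.70 and 12.80). Between iPSC and ESC, 0 genes of these 6 lists passed limma's test, where 0.0220% of genes were higher and 0.0550% lower.

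The genes whose log2 level followed each member most closely over the 16 arrays were named by Pearson correlation, as a description of arrays that fall mainly into pluripotent cells and HSC. Pou5f1 was followed by Dppa4, Tdgf1 and Morc1 (r of 0.998 to 0.999), Sox2 by Cdh1, Dppa2 and Eras (0.999 to 1.00), Nanog by Mymx, Lamb1 and Nr0b1 (0.997 to 0.998), and Zfp42 by Mpzl2, Trim71 and Dppa2 (0.998). Esrrb, read here by 1441921_x_at, whose steady-state HSC level 1436926_at did not share, was followed by Plxnb1, Rce1 and Commd5 (0.993 to 0.995). Tfcp2l1 was followed by Pnldc1, Zscan10 and Elf3 (0.994 to 0.995), and Sall4 by Alpl, Timp1 and Grb7 (0.996 to 0.997). Between 742 and 975 genes of 18183 had an r over 0.95 with each of these 7. For Klf4 no gene reached 0.95, and the nearest were Csmd3, Atf4 and Trim61 (0.934 to 0.944). For Klf2 14 genes did, led by Rasal1, Ccn1 and Evx2 (0.961 to 0.965), and for Myc 55 did, led by Rad52, Kdm2a and Bcl2 (0.981 to 0.986). Bcl2, the survival gene, averaged 5.95 in iPSC and ESC, 11.19 in transplanted HSC and 7.05 in steady-state HSC.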

How the data were processed

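The deposited table of the whole series held, per the file itself, 1 intensity for each of 45101 probe sets on 16 arrays, as the authors made it. The labels and the file do not record how probes were summarised, background corrected and arrays scaled. The intensity was taken to log2 with no pseudocount, and 64 control probe sets were left out. Probe sets were named by GEO's platform annotation: 34945 had 1 symbol, 932 several and 9160 none listed. Groups came from the sample labels. Each comparison was fitted with limma 3.58.1 (R 4.3.3) on all 45037 probe sets with no filter: on all 16 arrays for pluripotent cells against steady-state HSC (9 residual degrees of freedom), on the 6 iPSC and ESC arrays (3) and on the 10 HSC arrays (6). Tests were two-sided, with Benjamini-Hochberg adjustment over all probe sets and a call at an adjusted p under 0.05. An SE is that of a log2 difference, and an interval is the 95% interval of the fit. Lists were read at 1 probe set per gene, and from each list up to 4 genes with the smallest p were named; for each member, the 3 genes outside the set with the highest Pearson r were named. The member genes and lists were chosen with earlier results of these data known. The fit was tested on simulated data. Sequences and positions came from RefSeq (GRCm38.p6), whose promoter table held 11 windows of 8 members. The number of arrays limits the precision.

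Other scalings, filters on dim probe sets, 1 probe set per gene, another variance prior, a pseudocount of 64, a fit on all arrays, arrays left out and the replicate number as a block were tried as alternatives. Numbers shared between groups were not treated as pairs, although the steady-state arrays numbered 1 of both ages were both high in immediate early genes: over all probe sets, same-numbered steady-state arrays of aged and young mice correlated at -0.0194, -0.332 and 0.172 in their deviations from the group means, transplanted ones at -0.129 and iPSC at -0.089.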

Additional observations from a re-analysis of the deposited data

How the results depend on the processing

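Of 2412 recomputed values for single probe sets, 0 called differences changed sign, 26 lost their call, 15 gained one, and 102, all of them uncalled, crossed 0. The counts of member probe sets called stayed between 10 and 14 in iPSC against steady-state HSC (14 as reported) and between 9 and 12 in ESC (11 as reported), arrays left out included. They stayed at 0 for iPSC against ESC, aged-origin against young-origin iPSC, aged against young steady-state HSC and the interaction. In transplanted against steady-state HSC the count of 8 became 5 with probe sets under the 25th percentile left out (9 members tested) and 2 with those under the 50th left out (4 tested), where fewer members were tested; leaving out arrays gave 7 to 8. In aged against young transplanted HSC leaving out arrays gave 0 to 1. The member calls that came or went with single settings were those of Klf4 1417394_at, Myc, Nanog, Esrrb 1422986_at, Sall4 1424153_s_at and Tfcp2l1 1460715_x_at; the cause was not tested. Klf4 1417394_at in iPSC was also lost with a pseudocount of 64 (2.12, adjusted p 0.0503), and in transplanted HSC with the same pseudocount (-2.20, adjusted p 0.0980).

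With the replicate number as a block, fitted without ESC, 12 member probe sets were called in iPSC against steady-state HSC and 7 in transplanted HSC, and Klf4 1417394_at in iPSC was 1.60 (adjusted p 0.108). Crossing the numbers of the transplanted arrays, tried because same-numbered ones correlated at -0.129, gave 0 members and 12 probe sets in all. With 2 arrays in each group, crossed numbers must correlate at the opposite value, 0.129, so these values cannot show which arrays were paired.

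Over all probe sets, counts of calls ranged under the alternatives from 12272 to 29634 in iPSC (25830 as reported), from 9907 to 23984 in ESC (19940), from 11390 to 28892 in transplanted HSC (26795), from 0 to 102 in iPSC against ESC (33), from 0 to 5 between iPSC origins (4), from 39 to 416 for age in steady-state HSC (223), from 0 to 1666 for age in transplanted HSC (375; 81 to 3061 with 1 array left out) and from 0 to 449 for the interaction (23; 0 to 1248). The settings without the arrays numbered 1 or without transplanted arrays were chosen after seeing the data. Dim probe sets limit what could be seen: 6 of the 16 members had a median percentile under 25 over the 10 HSC arrays, and no detection calls were used.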
